A study of Mus musculus with 6 samples.

Results

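The proteasome genes were 52 of the 16880 genes in the expression table. They were chosen by spelling: symbols that begin with Psma, Psmb, Psmc, Psmd, Psme or Psmg followed by a number, together with Psmf1, Pomp and Adrm1. The spelling also took in Psmc3ip and Psme3ip1, which encode partners of other proteins, so 50 of the 52 were proteasome genes. By role these were 14 genes of the 20S core, 18 of the 19S cap, 3 of the immunoproteasome, 8 assembly chaperones, 6 other caps and regulators, and 1 core subunit found in the thymus, Psmb11. Psma8, the testis counterpart of Psma7, was not listed in the table.

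RNA was sequenced from mouse cells in 2 groups of 3 libraries. Both groups received IL-1β, an inflammatory cytokine, at 10 ng/mL, and the ILN group also received NP-G2-044, a small molecule inhibitor of the actin-bundling protein FSCN1, at 10 µM. The methods give 24 h of treatment and biological replicates, call the cells chondrocytes and describe primary cultures from newborn mice, whereas the labels name ATDC5, a single mouse chondrogenic line, and the treatment label of the inhibitor group reads NP-G2-047. A DMSO group was not analysed here, so every difference is IL-1β plus NP-G2-044 (ILN) against IL-1β alone (IL).

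The libraries held 16615831 to 17735850 estimated reads. Correlations of log2 levels were at least 0.993 within a group and at most 0.918 between groups, and no library stood apart from its group. Beyond counting error, replicates varied little, with a common coefficient of variation of 2.33%. The adjusted p values below measure differences against the spread of these libraries. Of 10 chondrocyte markers, 7 were listed and 5 of these were under 1 TPM (a transcript level scaled by gene length and library size) in every library. Their summed level was 16.7 to 17.9 TPM in IL and 13.5 to 14.4 TPM in ILN. Col2a1, which encodes the main cartilage collagen, was at most 0.24 TPM and Matn1 was at 0 throughout, and the markers above 1 TPM were Sox9 (6.44 ± 0.675 TPM in IL and 11.4 ± 0.0569 in ILN) and Sox5 (10.3 ± 0.0839 and 2.27 ± 0.245; SD, n = 3), so every listed matrix gene of cartilage was under 1 TPM. Of 8 leukocyte markers, 6 were listed and 5 were under 1 TPM, Ptprc at 0 in every library. The list summed to 11.5 to 14.6 TPM in IL and 124.2 to 134.9 TPM in ILN, nearly all from Cd68, at 10.62 to 13.97 TPM in IL and 123.92 to 134.67 TPM in ILN. The 4 endothelial markers were under 1 TPM, and 6 fibroblast markers summed to 21.4 to 23.3 TPM in IL and 12 to 12.7 TPM in ILN, with Col1a1, Col3a1 and Dcn lower and Pdgfra higher, from 2.36 ± 0.286 to 8.69 ± 0.298 TPM. The part of these shifts in the values that follow was not tested. In bulk RNA, fewer cells that express a gene and less of its RNA per cell cannot be told apart.

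The proteasome is the protease that degrades proteins tagged with ubiquitin. Its barrel, the 20S core, stacks outer rings of alpha subunits on inner rings of beta subunits, of which Psmb5, Psmb6 and Psmb7 carry the active sites. The 19S cap binds ubiquitin, unfolds the substrate with its ring of ATPases and feeds it into the barrel. In cells stimulated by interferon, Psmb8, Psmb9 and Psmb10 replace Psmb5, Psmb6 and Psmb7 to give the immunoproteasome, and the 11S activator of Psme1 and Psme2 can dock in place of the cap. Both favour peptides suited to presentation on class I molecules.

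The start regions of 5 genes are shown, chosen by their fold changes. They are Psmb9, Psme1 and Psme2, the genes that fell by more than 1 on the log2 scale, and Adrm1 and Psmc6, the subunits of the 19S cap with the highest rises. Each run covers 250 bases before the start site to 30 bases after it, 5′ to 3′ on the gene's strand, from RefSeq on build GRCm38.p6. Capitals mark matches to the motifs described further on. The regions are chr17:34187301-34187580 on the minus strand for Psmb9, chr14:55578244-55578523 on the plus strand for Psme1, chr14:55591072-55591351 on the minus strand for Psme2, chr2:180171338-180171617 on the plus strand for Adrm1 and chr14:45329574-45329853 on the plus strand for Psmc6. RefSeq gives Psme2 another start as well, whose run, chr14:55590992-55591271, was searched but is not printed.
Psmb9: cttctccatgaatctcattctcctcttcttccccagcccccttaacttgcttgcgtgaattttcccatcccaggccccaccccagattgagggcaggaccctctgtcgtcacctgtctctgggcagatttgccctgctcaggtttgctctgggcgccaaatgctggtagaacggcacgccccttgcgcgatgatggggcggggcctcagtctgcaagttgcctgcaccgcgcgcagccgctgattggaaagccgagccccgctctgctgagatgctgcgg
Psme1: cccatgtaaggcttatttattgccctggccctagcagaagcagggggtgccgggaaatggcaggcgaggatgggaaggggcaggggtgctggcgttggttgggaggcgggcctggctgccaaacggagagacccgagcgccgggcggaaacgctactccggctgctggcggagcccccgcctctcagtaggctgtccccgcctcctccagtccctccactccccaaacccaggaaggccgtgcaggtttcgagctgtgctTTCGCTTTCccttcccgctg
Psme2: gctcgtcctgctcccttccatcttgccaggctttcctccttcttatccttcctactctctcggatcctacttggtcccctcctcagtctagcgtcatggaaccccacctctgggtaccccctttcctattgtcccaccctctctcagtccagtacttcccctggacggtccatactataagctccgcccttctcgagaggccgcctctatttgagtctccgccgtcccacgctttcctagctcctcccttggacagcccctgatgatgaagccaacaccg
Adrm1: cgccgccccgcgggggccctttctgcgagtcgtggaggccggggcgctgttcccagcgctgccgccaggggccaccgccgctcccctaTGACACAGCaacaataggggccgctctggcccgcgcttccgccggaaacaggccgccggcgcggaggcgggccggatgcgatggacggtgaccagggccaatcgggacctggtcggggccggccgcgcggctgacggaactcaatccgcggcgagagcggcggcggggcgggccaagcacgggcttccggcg
Psmc6: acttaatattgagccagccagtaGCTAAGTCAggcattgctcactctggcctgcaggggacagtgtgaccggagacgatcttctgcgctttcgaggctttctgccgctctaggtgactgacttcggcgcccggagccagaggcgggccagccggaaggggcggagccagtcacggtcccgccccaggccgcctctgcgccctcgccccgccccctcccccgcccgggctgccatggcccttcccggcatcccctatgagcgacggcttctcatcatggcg

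The 20S core was lower with NP-G2-044, the 19S cap was divided, and Psmb9 and Psmb10 of the immunoproteasome and the 11S pair Psme1 and Psme2 fell most. Of the 50 proteasome genes, 47 had enough reads to test. By the quasi-likelihood test of edgeR, adjusted by Benjamini and Hochberg's method over all 11983 genes tested, 16 of the 47 rose and 23 fell at an adjusted p below 0.05, and 8 were not called. Across all genes tested 80.0% were called, 40.2% higher and 39.8% lower, so a call alone set no gene apart in these libraries. Of the 47, 3 (Psmb9, Psme1 and Psme2) fell past both cutoffs of the study, which also ask for a change of more than 1 in either direction on the log2 scale, and 0 rose past them, against 10.1% lower and 6.48% higher over all genes. TPM did not overlap between the groups in 41 of the 47, against 79.4% of all genes.

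Most of the changes were small. The median log2 fold change of the 47 was -0.08 and its median size 0.27, against 0.002 and 0.39 over all genes tested. For the 1411 genes of 100 to 1000 TPM, a range that holds most proteasome genes, the same values were -0.008 and 0.31. A size above 0.5 was reached by 6 of the 47 (12.8%), by 32.8% of the genes of 100 to 1000 TPM and by 40.3% of all genes tested. These 6 were Psma5, Psmb9, Psmb10, Psme1, Psme2 and Psme3.

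**Figure D1:**
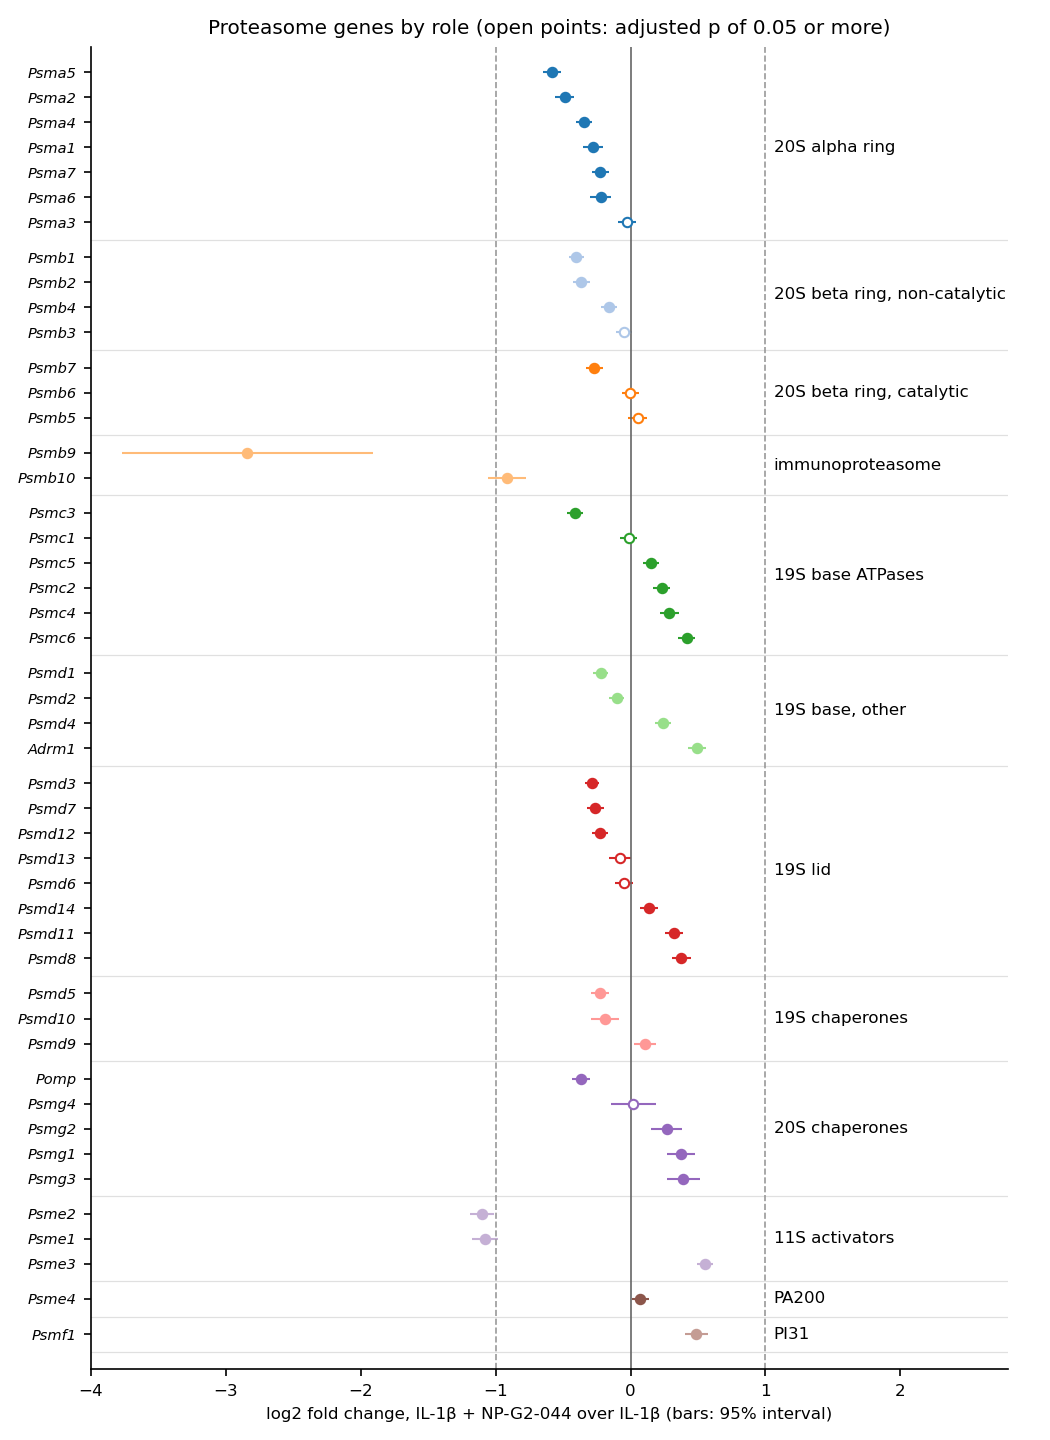
Log2 fold change, ILN over IL, of each of the 47 tested proteasome genes, grouped by role, with bars for the 95% interval and open points for adjusted p of 0.05 or more. The points of the 20S core lie at or left of 0 apart from Psmb5 at 0.05, those of the 19S cap lie on both sides, and Psmb9, Psme1 and Psme2 lie beyond the dashed line at -1.

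In the 20S core 10 of 14 genes fell, 0 rose and 4 were not called, with a median log2 fold change of -0.25 and a range of -0.58 to 0.05. Over all genes tested, 39.8% fell and 40.2% rose. The alpha ring, which gates the entrance of the barrel, fell in 6 of its 7 genes. Psma5 (gene ID 26442, chr3:108256926-108279952) changed most. It measured 212.7, 207.9 and 220.3 TPM in IL and 138.84, 139.23 and 142.12 TPM in ILN, a log2 fold change of -0.58 ± 0.0355 (SE; adjusted p = 4.43e-21). Every ILN library was well below the lowest IL library. Psma2, Psma4, Psma1, Psma7 and Psma6 fell by 0.49, 0.35, 0.28, 0.23 and 0.22 on the log2 scale. Psma3 alone in the ring was not called. It measured 176.93, 173.19 and 180.26 TPM in IL and 173.56, 173.71 and 172.92 TPM in ILN, a log2 fold change of -0.03 (95% interval -0.10 to 0.04; adjusted p = 0.447), and its groups overlapped. Copies elsewhere in the annotation, of at least 95% identity over 300 bases, number 4 for Psma3, 2 for Psma5 and 1 for Psma4. Reads of these genes may have been divided with their copies.

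Of the 4 beta subunits without an active site in this ring, 3 fell. Psmb1 fell most, from 493.79, 508.66 and 517.08 TPM to 378.73, 385.38 and 366.73 TPM, a log2 fold change of -0.40 ± 0.0297 (adjusted p = 9.66e-18), with a wide gap between the groups. Psmb2 fell by 0.37 and Psmb4 by 0.16 on the log2 scale. Psmb3, the highest of all proteasome genes, measured 784.52, 797.26 and 850.81 TPM in IL and 787.44, 774.2 and 765.45 TPM in ILN and was not called (log2 fold change -0.05, 95% interval -0.10 to 0.01, adjusted p = 0.15). One ILN library lay above the lowest IL library. Psmb3 has 3 such copies, which may have shared its reads.

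The 3 catalytic subunits did not move together. Psmb7, which cleaves after basic residues, fell from 343.71, 329.44 and 364.27 TPM to 293.24, 297.1 and 282.02 TPM, a log2 fold change of -0.27 ± 0.0326 (adjusted p = 1.52e-10). In GENCODE, 405 of the 3421 exon bases of Psmb7 overlap Nek6 on the opposite strand, and reads from that stretch may not be told apart. Psmb6, which cleaves after acidic residues, measured 407.5, 398.3 and 384.92 TPM in IL and 390.42, 393.3 and 384.83 TPM in ILN (log2 fold change between -0.06 and 0.06, 95% interval, adjusted p = 0.962). Psmb5, the chymotrypsin-like subunit and the main target of bortezomib, measured 283.66, 289.87 and 279.12 TPM in IL and 279.29, 299.14 and 293.52 TPM in ILN (log2 fold change 0.05, 95% interval -0.02 to 0.12, adjusted p = 0.157). Of the catalytic subunits, Psmb7 alone had groups that did not overlap. Psmb5 has 1 near-identical copy, which may have shared its reads. Without ILN library 1, Psmb5 was called higher, by 0.0878 on the log2 scale at an adjusted p of 0.0348.

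The immunoproteasome genes were scarce next to their constitutive partners in both groups. Psmb8 had 1 read in the first IL library and 0 in the other 5, too few for a fold. For ILN, the limit that a count of 0 allows, 3 reads over the group, is 0.0567 CPM (reads scaled to library size). Psmb9 (gene ID 16912, chr17:34182030-34187330) had 16, 18 and 16 reads in IL and 4, 3 and 0 in ILN, which is 2.65, 3.23 and 2.7 TPM against 0.5, 0.49 and 0 TPM. No ILN library came near the IL libraries, and 1 was at 0.

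For Psmb9 the fitted log2 fold change was -2.84 ± 0.475 (adjusted p = 4.3e-07). The ratio of pooled reads, scaled by depth, was 7.52 in favour of IL, with an exact binomial 95% interval of 3.39 to 19.7 that covers counting error only. The size was uncertain: limma on log2(TPM + 1) gave -1.56, and leaving out ILN library 1 or 3 gave -3.44 or -2.28. In the GENCODE annotation, where transcripts of Psmb9 start further upstream than in RefSeq, its exons share 212 of their 3660 bases with Tap1 on the opposite strand, and since the sources used here do not state the strand setting of the counting, reads from that stretch cannot be told apart.

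Psmb10 (gene ID 19171, chr8:105935728-105938392), the counterpart of Psmb7, was the abundant one of the 3. It measured 39.16, 39.01 and 37.73 TPM in IL and 20.59, 19.38 and 20.33 TPM in ILN, a log2 fold change of -0.92 ± 0.0731 (adjusted p = 1.66e-16), and rested on 1226 reads in IL and 683 in ILN. The libraries of each group lay close together, with a wide gap between the groups. The 2 tested immunoproteasome genes had a median log2 fold change of -1.88, which limma on log2(TPM + 1) put at -1.23.

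**Figure D2:**
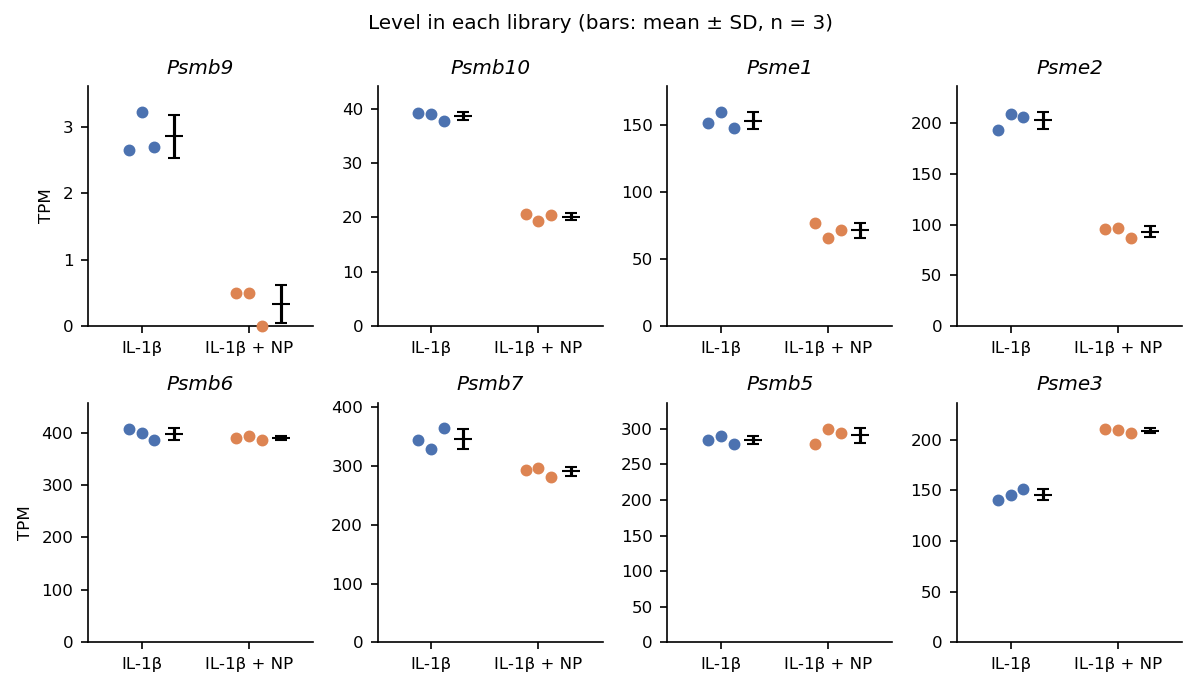
TPM of 8 genes in each of the 6 libraries, IL-1β on the left and IL-1β plus NP-G2-044 (NP) on the right of each panel, with bars for the mean ± SD (n = 3). The groups are apart for Psmb9, Psmb10, Psme1, Psme2, Psmb7 and Psme3 and overlap for Psmb6 and Psmb5, and Psmb9 lies at 0.33 TPM on average in ILN.

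Set against their partners, both measurable immune subunits made up a smaller share in ILN. Psmb10 was 11.4%, 11.8% and 10.4% of the Psmb7 level in IL and 7.02%, 6.52% and 7.21% in ILN. Psmb9 was 0.65%, 0.811% and 0.701% of Psmb6 in IL and 0.128%, 0.125% and 0% in ILN. In both ratios every ILN library was below every IL library. The differences were -0.694 in the log2 ratio of Psmb10 to Psmb7 and -0.637 percentage points for Psmb9 over Psmb6. A two-sided exact permutation test gave p = 0.1 for each, adjusted 0.1 over 2 tests, the smallest that 3 against 3 libraries allow. The ratio of Psmb8 to Psmb5 was 0.0353% in 1 IL library and 0 elsewhere and was not tested.

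In the 19S cap 9 of 18 genes rose, 6 fell and 3 were not called, with a median log2 fold change of 0.06. Over all genes tested, 40.2% rose and 39.8% fell. TPM of the groups did not overlap for 18 of the 18, against 79.4% of all genes tested. The 18 include the 3 that the fit did not call. The base ATPases rose in 4 of 6 genes. Psmc6 (gene ID 67089, chr14:45329823-45349074) rose from 227.39, 227.44 and 240.36 TPM to 294.55, 298.55 and 313.37 TPM, a log2 fold change of 0.42 ± 0.0311 (adjusted p = 1.47e-17). All ILN libraries were higher than all IL libraries. Psmc4, Psmc2 and Psmc5 rose by 0.29, 0.23 and 0.15 on the log2 scale. In the same ring of ATPases Psmc3 fell by 0.41 on the log2 scale, from 213.36, 220.12 and 210.68 TPM to 158.34, 159.16 and 157.46 TPM.

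Psmc1, the remaining ATPase, measured 162.93, 172.87 and 162.85 TPM in IL and 161.44, 161.53 and 160.82 TPM in ILN, and its log2 fold change was -0.01 (95% interval -0.08 to 0.05; adjusted p = 0.69). The ILN libraries lay just under the IL libraries. Psmc1 has 2 near-identical copies, which may have shared its reads. Subunits of one ring, which are assembled in equal number, thus had log2 fold changes from -0.41 to 0.42.

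The rest of the base was divided as well. Its ubiquitin receptors rose: Psmd4 by 0.24 on the log2 scale, and Adrm1 (gene ID 56436, chr2:180171588-180176283) from 155.26, 144.48 and 145.99 TPM to 211.03, 204.27 and 200.48 TPM. The Adrm1 log2 fold change of 0.49 ± 0.0347 (adjusted p = 1.43e-18) was the highest in the cap. Its scaffolds fell, Psmd1 by 0.22 and Psmd2 by 0.10 on the log2 scale. Psmd2 measured 285.36, 303.13 and 294.06 TPM in IL and 270.07, 262.9 and 269.72 TPM in ILN (adjusted p = 5.84e-04), a narrow gap between the groups. Adrm1 and Psmd2 each have 1 near-identical copy, which may have shared their reads. Psmd1 shares 301 of its 7265 exon bases in GENCODE with Gm21972 on the same strand, and reads from that stretch cannot be told apart.

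The lid, which holds the deubiquitinase Psmd14, rose in 3 genes, fell in 3 and was not called in 2. Psmd8 rose most, from 116.11, 112.45 and 114.09 TPM to 145.47, 147.41 and 142.78 TPM, a log2 fold change of 0.37 ± 0.0355 (adjusted p = 7.17e-14), with the ILN libraries clearly higher. Psmd11 rose by 0.32 and Psmd14 by 0.13, while Psmd3, Psmd7 and Psmd12 fell by 0.29, 0.26 and 0.23 on the log2 scale. Psmd6 measured 164.73, 166.76 and 163.32 TPM in IL and 154.0, 158.53 and 155.87 TPM in ILN (log2 fold change -0.05, 95% interval -0.12 to 0.02, adjusted p = 0.166). Psmd13 measured 79.75, 82.99 and 80.08 TPM in IL and 71.64, 76.96 and 76.42 TPM in ILN (log2 fold change -0.08, 95% interval -0.16 to 0.00, adjusted p = 0.0764). In both, TPM was lower in every ILN library, although the test on counts did not call them.

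The summed level was lower in ILN for the core and overlapped between groups for the cap. The 20S core summed to 5065.6, 5056.2 and 5201.5 TPM in IL and 4338.5, 4379.5 and 4283.4 TPM in ILN, means of 5107.8 ± 81.3 and 4333.8 ± 48.2 (SD, n = 3). The 19S cap summed to 3611.9, 3682.3 and 3655.0 TPM in IL and 3690.1, 3720.5 and 3678.6 TPM in ILN, means of 3649.7 ± 35.5 and 3696.4 ± 21.7. The median over genes was lower in ILN for both, at 361.5 ± 7.01 and 292.2 ± 5.34 TPM for the core and 191.0 ± 4.8 and 178.5 ± 2.5 TPM for the cap. The cap sum was 71.3%, 72.8% and 70.3% of the core sum in IL and 85.1%, 85.0% and 85.9% in ILN. The sums are descriptions without a test and give most weight to the genes of highest level.

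**Figure D3:**
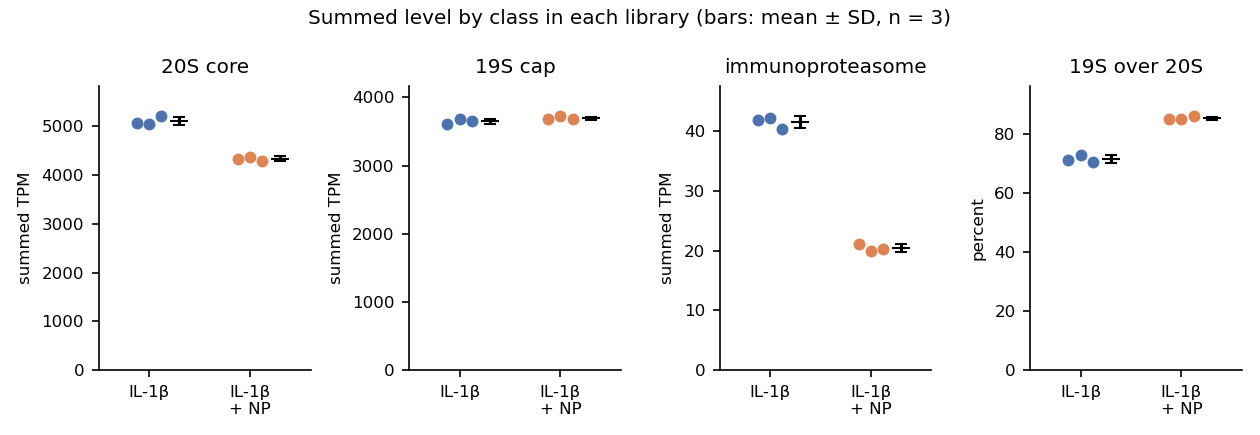
Summed TPM of the 20S core, the 19S cap and the immunoproteasome, and the cap sum as a percent of the core sum, in each of the 6 libraries with bars for the mean ± SD (n = 3). The core sum is lower with NP-G2-044 (NP), the cap sums overlap, the immunoproteasome sum goes from 41.5 to 20.4 TPM, and the cap is 71.5% of the core in IL and 85.3% in ILN.

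Chaperones that build the particle followed no single direction, with 4 of 8 higher, 3 lower and 1 not called. The shares over all genes tested were 40.2% higher and 39.8% lower. Of the chaperones of the 20S core, Pomp, the maturation factor degraded by each finished core, was the most abundant and fell from 455.04, 449.82 and 444.02 TPM to 342.44, 340.1 and 349.51 TPM, a log2 fold change of -0.37 ± 0.0341 (adjusted p = 3.15e-14). By contrast 3 of the 4 Psmg chaperones, which pair up to build the alpha ring, rose. Psmg3 rose from 70.91, 66.63 and 60.53 TPM to 87.24, 87.02 and 81.83 TPM, a log2 fold change of 0.39 ± 0.0623 (adjusted p = 1.56e-07), Psmg1 by 0.38 and Psmg2 by 0.27. In GENCODE, 280 of the 2893 exon bases of Psmg3 overlap Gm26938 on the same strand, and reads from that stretch cannot be told apart. Psmg4 measured 79.6, 78.01 and 81.92 TPM in IL and 82.08, 78.15 and 88.09 TPM in ILN and was not called (log2 fold change 0.02, 95% interval -0.15 to 0.19, adjusted p = 0.843).

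Among chaperones of the 19S base, Psmd5 fell from 103.32, 104.41 and 104.39 TPM to 87.49, 89.7 and 84.39 TPM, a log2 fold change of -0.23 ± 0.0348 (adjusted p = 7.2e-08), and Psmd10 fell by 0.19. Psmd9 measured 36.2, 37.06 and 37.06 TPM in IL and 39.96, 38.11 and 38.25 TPM in ILN, a log2 fold change of 0.11 ± 0.043 (adjusted p = 0.0199). The Psmd9 groups did not overlap but lay close. Its call was lost without ILN library 1 (adjusted p = 0.0714) and by DESeq2 (0.098) and limma (0.101), and 1849 of its 7248 exon bases overlap the noncoding gene Gm26745 on the opposite strand.

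The 11S activators moved apart. Psme1 (gene ID 19186, chr14:55578494-55581527) fell from 151.87, 160.02 and 147.63 TPM to 76.69, 65.84 and 71.56 TPM, a log2 fold change of -1.08 ± 0.0493 (adjusted p = 2.41e-26). Psme2 (gene ID 19188, chr14:55587440-55591101) fell from 193.27, 209.08 and 206.66 TPM to 95.96, 96.9 and 86.71 TPM, a log2 fold change of -1.10 ± 0.0455 (adjusted p = 2.49e-28). Psme3 (gene ID 19192, chr11:101316213-101323537), which encodes the nuclear 11S activator, rose from 140.86, 144.86 and 151.19 TPM to 210.71, 209.64 and 206.18 TPM, a log2 fold change of 0.55 ± 0.0291 (adjusted p = 8.82e-24). For all 3 genes the groups were far apart.

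Relative to Psme3, Psme1 was 107.8%, 110.5% and 97.6% in IL and 36.4%, 31.4% and 34.7% in ILN, and Psme2 was 137.2%, 144.3% and 136.7% in IL and 45.5%, 46.2% and 42.1% in ILN. By mean level Psme2 was the highest of the 3 in IL and Psme3 the highest in ILN, while Psme2 stayed above Psme1 in both groups. Psme2b, which shares 794 bases with Psme2 at 95% identity or more, had 7 reads in IL and 7 in ILN and was not tested, and reads of the 2 genes may have been divided between them in counting.

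Of the other regulators, Psmf1, which encodes the proteasome inhibitor PI31, rose from 23.28, 24.37 and 23.01 TPM to 32.88, 31.81 and 31.63 TPM, a log2 fold change of 0.49 ± 0.0441 (adjusted p = 1.63e-14), with no overlap. Psme4, which encodes the activator PA200, measured 40.1, 45.45 and 43.87 TPM in IL and 45.15, 43.93 and 43.75 TPM in ILN, a log2 fold change of 0.07 ± 0.0327 (adjusted p = 0.0365). Its groups overlapped, and the call was lost under 8 of the alternatives, among them leaving out IL library 1 (log2 fold change 0.0294, adjusted p = 0.418), each ILN library (adjusted p of 0.0551 to 0.0881) and the replicate block (adjusted p = 0.0503). Psmb11, the thymus subunit, had 5 reads in each group and was not tested.

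Of the 2 genes matched by spelling alone, 1 was called. Psmc3ip, a meiotic recombination factor, measured 38.14, 46.39 and 40.96 TPM in IL and 43.87, 44.4 and 39.32 TPM in ILN (log2 fold change 0.05, 95% interval -0.09 to 0.20, adjusted p = 0.534). Psme3ip1, a partner of Psme3, rose from 66.11, 66.49 and 64.06 TPM to 75.61, 75.65 and 78.05 TPM, a log2 fold change of 0.25 ± 0.0405 (adjusted p = 2.9e-07).

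Of 23 regulators and cofactors of the proteasome outside the rule, 22 were listed, and 10 rose, 8 fell and 4 were not called. Over all genes tested, 40.2% rose and 39.8% fell. The median log2 fold change of the list was 0.06. Zfand2a, a stress-induced protein that binds the 19S cap, rose from 44.01, 45.07 and 44.91 TPM to 163.23, 168.2 and 164.51 TPM, a log2 fold change of 1.92 ± 0.0323 (adjusted p = 2.76e-46). Nfe2l1, the transcription factor that induces proteasome subunit genes when the proteasome is impaired, rose from 139.54, 155.5 and 147.75 TPM to 377.84, 378.21 and 366.99 TPM, a log2 fold change of 1.30 ± 0.0288 (adjusted p = 1.06e-40). Akirin2, which brings the proteasome into the nucleus, rose from 40.27, 41.37 and 40.99 TPM to 73.57, 63.92 and 63.24 TPM, a log2 fold change of 0.75 ± 0.0583 (adjusted p = 2.26e-12). None of the 3 overlapped between groups. Nfe2l2, which encodes the related factor NRF2, fell from 81.31, 83.18 and 81.85 TPM to 59.22, 57.07 and 57.26 TPM, a log2 fold change of -0.47 ± 0.0353 (adjusted p = 1.31e-17). Of the enzymes that process Nfe2l1, Ddi2 rose by 0.32, Ngly1 fell by 0.26 and Vcp fell by 0.57 on the log2 scale.

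Of the 7 reported genes of class I peptide loading and its regulators, 6 fell and 1 rose, with a median log2 fold change of -0.96. Past both cutoffs, 3 were lower and 1 was higher. Over all genes tested, 39.8% fell and 40.2% rose, and 10.1% were lower and 6.48% higher past both cutoffs. Irf1, a transcription factor of the interferon response, fell from 44.39, 47.38 and 47.32 TPM to 16.27, 18.9 and 16.0 TPM, a log2 fold change of -1.41 ± 0.0563 (adjusted p = 4.93e-29). Erap1, a peptide-trimming enzyme of the endoplasmic reticulum, fell by 1.32 and Tap1, a subunit of the peptide transporter, by 1.03 on the log2 scale, Tap1 from 8.83, 6.7 and 7.02 TPM to 3.0, 3.84 and 3.97 TPM. Tap1 lay near the log2 cutoff and was no longer past it without IL library 1 (-0.89) or ILN library 1 (-0.91) or with limma (-0.89). The groups overlapped for none of Irf1, Erap1 and Tap1. Tap2, Tapbp and B2m fell by 0.96, 0.82 and 0.08 on the log2 scale. Nlrc5, a coactivator of class I genes, was the exception and rose by 1.00, at 0.94 to 1.01 TPM in IL and 1.82 to 2.08 TPM in ILN.

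**Figure D4:**
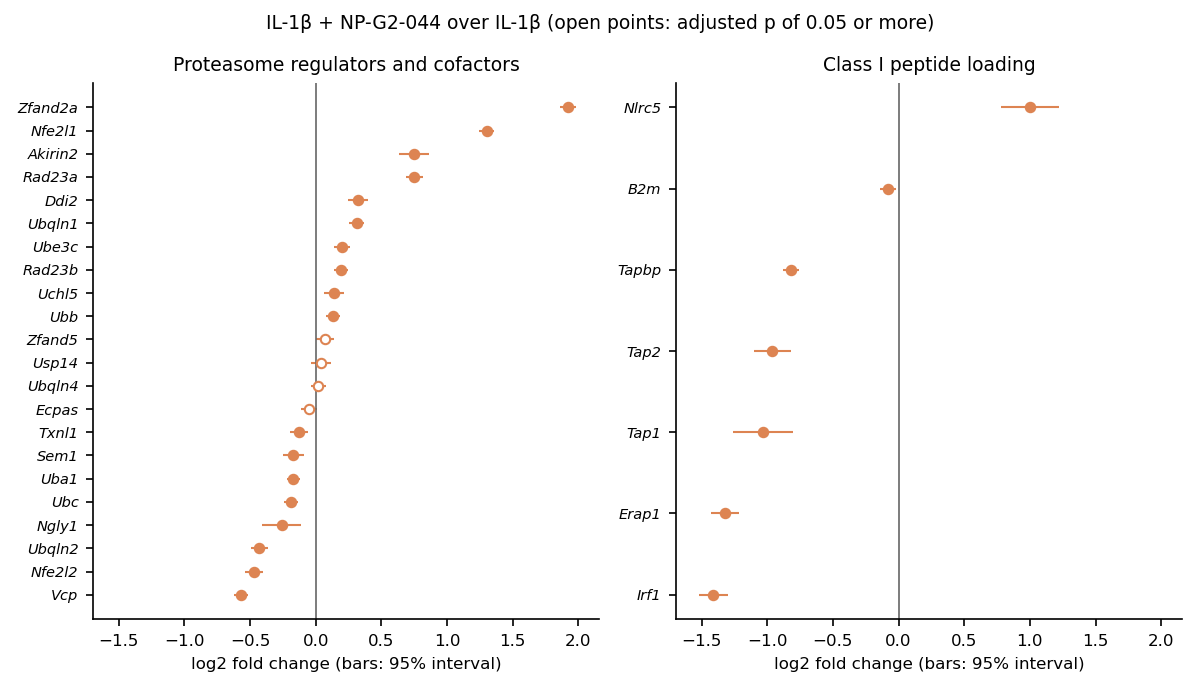
Log2 fold changes, ILN over IL, of 22 proteasome regulators and cofactors (left) and of 7 genes of class I peptide loading and its regulators (right). Bars give the 95% interval, and open points mark adjusted p of 0.05 or more. Zfand2a and Nfe2l1 rose by more than 1, and in the right panel Nlrc5 alone lies right of 0.

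Some of the genes that fell lie close together, and whether position bears on the falls was not tested. Psme1 and Psme2 are neighbours on chromosome 14, 5912 bases apart, with Emc9 between them and overlapping the end of Psme1 by 14 exon bases in GENCODE. In RefSeq, Psmb9 and Tap1 are read in opposite directions from start sites 226 bases apart on chromosome 17, with Psmb8 on the far side of Tap1, so the run printed for Psmb9 spans the whole stretch between the 2 starts.

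Start regions of 45 of the 52 genes were matched in RefSeq, without Psmb1, Psmb2, Psmb7, Psmc3, Psmd3, Psmd7 and Psmg2. They were searched on both strands, from 250 bases before to 50 after the start, for 2 motifs chosen after the values had been seen. The first, TGACNNNGC, is a core of the element bound by NRF1, the product of Nfe2l1, and NRF2. It was present in the start regions of 16.9% of 9635 tested genes. By class it was found in 2 of 11 genes of the 20S core (Psmb5 and Psmb6), 3 of 15 of the 19S cap (Adrm1, Psmc6 and Psmd12) and 0 of 3 of the immunoproteasome. The assembly chaperones had it in 1 of 7 (Psmd9) and the other regulators in 1 of 6 (Psme4). Of the genes with this motif, Adrm1, Psmc6, Psmd9 and Psme4 were called higher and Psmd12 lower, and Psmb5 and Psmb6 were not called. The calls of Psmd9 and Psme4 were lost under some alternatives. Over all genes tested, 40.2% were called higher and 39.8% lower. In the printed runs the motif lies at positions -162 to -154 from the start of Adrm1 and at -227 to -219 from that of Psmc6, there on the opposite strand. The second, GAAANNGAA, a core of the element bound by interferon regulatory factors, was present in the start regions of 8.2% of the same tested genes. By class it was found in 2 of 11 genes of the core, 2 of 15 of the cap and 0 of 3 of the immunoproteasome. The assembly chaperones had it in 3 of 7 (Pomp, Psmd9 and Psmg4) and the other regulators in 1 of 6 (Psme1). Among its carriers, Psmc2, Psmd4 and Psmd9 were called higher, Psmb4, Pomp and Psme1 lower, and Psmb3 and Psmg4 were not called. The class counts of both motifs include Psmb8 and Psme2b, which were not tested for a change. Psme1 has it on the opposite strand at bases 11 to 19 after the start. No match of one motif overlapped one of the other. A match is a run of letters and not a measured site, and whether a match goes with a change was not tested.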

How the data were processed

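RNA was measured in 6 libraries of mouse cells, 3 per group, grouped by their titles. One deposited table gives a count, TPM and FPKM for every gene in each library. The deposited expected counts, estimated per gene and not normalized, were not whole for 10.17% to 11.06% of values and were rounded. The deposited TPM and FPKM were computed by the authors per library, and TPM has the same sum in each. FPKM served as an alternative only. BGI quantified the libraries, and the submitters' processing notes name cutadapt, HISAT2 2.0, StringTie and mm10. The counting tool, the annotation and the strand setting are, in the sources used here, not given. The estimated totals were 16615831 to 17735850 reads, so 3 reads, the limit that a count of 0 allows, were 0.169 to 0.181 CPM, for counting error only.

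Counts were filtered (filterByExpr, minimum count of 10), normalized with TMM (factors 0.9975 to 1.002) and compared by edgeR 4.0.16 (robust quasi-likelihood test) in R 4.3.3 without covariates. The Benjamini-Hochberg adjustment covered 11983 genes. SE is the log2 fold change over the square root of F, 95% intervals are normal intervals from the SE, and overlap was judged in TPM. The procedure was tested on simulated data. Library pairs differed by 1.54 to 2.39 times sampling noise within groups, so none was a copy of another. These values do not show whether the libraries of a group came from independent cultures. Because Psmb9 was at 0 in 1 library, its ratio was tested in percent, not log2, and the Psmb8 ratio was not tested. Coordinates, start regions and exon overlaps are from GRCm38 (mm10) annotation. Of the 52 genes, 14 match another annotated gene at 95% identity or more over at least 300 bases, and their reads may be divided. They are Adrm1, Psma3, Psma4, Psma5, Psmb3, Psmb5, Psmc1, Psmc3ip, Psmd1, Psmd2, Psmd11, Psmd13, Psme2 and Psme2b. The matches of Psmc3ip, Psmd1 and Psmd13 are to Mlx, Gm21972 and Sirt3, genes whose exons overlap theirs, and not to copies elsewhere.

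The genes named with values are the immunoproteasome genes and partners, the largest and smallest change in size in each role, genes past both cutoffs, genes not called, and the 3 largest changes of each partner list. Others, such as Psmc3, Pomp and Nlrc5, were added after their values were seen. Of the class I list, 1 gene is not reported here and is left out of the counts. Members and lists were chosen with earlier results of these data known. Alternatives were DESeq2 1.42.0 and its size factors, library size alone, limma 3.58.1 on log2(TPM + 1), no filter, the replicate number as a block, and each library left out in turn.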

Additional observations from a re-analysis of the deposited data

How the results depend on the processing

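Under the alternatives, 375 of 396 values of single genes kept their direction and their side of adjusted p 0.05. Of the counts, medians and ratios, 247 of 254 were taken as kept. A count was kept within 1.5 times. A class median was kept if it moved by less than the SD within groups of the median log2 level of the class. With limma on log2(TPM + 1), the median log2 fold change was 0.03 for the 19S cap and -1.23 for the immunoproteasome. Leaving out each library in turn gave 0 to 1 genes of the 20S core called higher, the 1 being Psmb5 without ILN library 1. Class I genes past both cutoffs and higher numbered 0 with DESeq2 size factors in edgeR and with limma, and 0 to 1 with a library left out (0 without IL library 2 or ILN library 1); this gene was Nlrc5, whose log2 fold change lies at the cutoff. Those lower numbered 2 to 4 with a library left out (2 without IL 1 or ILN 1, 4 without IL 3) and 2 with limma. Log2 fold changes that turned sign were all in genes that were not called: Psmb6 (0.00146 without the filter, -0.0304 to 0.0263 with a library left out: 0.0263 without IL 1, 0.00329 without ILN 1 and 0.00525 without ILN 3), Psmc1 (-0.0347 to 0.00622), Psmc3ip (-0.00537 to 0.12) and Psmg4 (-0.0284 to 0.0644, and -0.00968 without IL 2). Psmd13 was called by limma (-0.11, adjusted p = 0.0474). The cause of these shifts was not tested. Libraries with the same number did not deviate together (correlations of -0.11, -0.028 and 0.00207), so the numbers do not pair them. With the replicate block 15 proteasome genes were called higher and 23 lower, and among the genes named with values Psme4 alone lost its call. Scarce genes were limited by depth: Psmb8, Psmb11 and Psme2b had at most 7 reads per group.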
